A study of Mus musculus with 4 samples.

Results

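The mouse genes that correspond to the human 22q11.2 deletion region were described across the cell groups, stages and genotypes of the *Tbx1Cre* lineage. The list held 38 symbols on mouse chromosome 16, with *Tbx1* itself left out. Members were found by symbol in the gene table of the E8.5 libraries and followed by Ensembl identifier into the E9.5 libraries. Of the 38 symbols, 36 were found among the 27514 genes shared by all gene tables. *Ess2* is the current name of the locus that the tables list as *Dgcr14*, and *Cltcl1* was not analysed here. In the mm10 build (RefSeq annotation of GRCm38.p6) the members ran from *Hic2* at 17233587 to the end of *Hira* at 18970309, and *Tbx1* lay among them at chr16:18580979-18590671.

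Droplet single-cell RNA-seq was done on sorted embryonic cells that carried GFP and excluded the dead-cell dye DAPI. The GFP was switched on by Cre recombinase made from the *Tbx1* locus, so it marks cells that expressed *Tbx1* and their descendants, among them pharyngeal mesoderm, endoderm and otic cells. Control embryos (Ctrl) were Tbx1Cre/+;Rosa26-GFPflox/+, and conditional knockout embryos (cKO) were Tbx1Cre/flox;Rosa26-GFPflox/+, both on a Swiss Webster background. Each genotype was sampled at E8.5, from the upper part of the body, and at E9.5, from the pharyngeal apparatus with the heart. For E9.5 the paper's sample summary also names the back. Its somite ranges reach slightly higher in cKO than in Ctrl at both stages, so genotype and age are not fully separate. The Cre insertion inactivates 1 copy of *Tbx1* in every group, so no group had both copies intact. Embryos of a group were pooled and were not sexed. Each of the 4 groups was 1 library.

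A heterozygous deletion at 22q11.2 is the cause of DiGeorge and velocardiofacial syndrome, with defects of the cardiac outflow tract, the pharyngeal arch arteries, the thymus, the parathyroids and the palate. *TBX1*, a T-box transcription factor of the pharynx, is the gene of the region most closely tied to these defects, and *CRKL*, a signalling adaptor, is tied to heart and kidney defects. The remaining genes encode proteins of general cell function, such as microRNA processing, histone deposition, DNA replication and mitochondrial metabolism, together with several genes of single tissues.

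The 4 libraries held 1090 to 6266 barcodes, and the median barcode carried 15910.5 to 23984 UMIs. Levels are given as UMIs per 1000000 UMIs of the shared genes (UPM), with exact 95% Poisson intervals in square brackets. Where a gene has 4 values in a row, they stand in the order Ctrl E8.5, cKO E8.5, Ctrl E9.5, cKO E9.5. A UMI is counted once for each captured 3′ end, so levels were not divided by transcript length, yet capture and annotation of the 3′ end differ between genes. With 1 library a group there was no spread between replicates and no test, and all intervals cover counting error only. Genotype and library cannot be told apart, and neither can stage, dissected tissue and library. In addition, cKO E9.5 had been counted on a table of 31053 genes, while the other libraries shared a table of 27998 genes. *Tbx1* itself stood at 86.4, 118, 103 and 134 UPM, and a 3′ count does not check whether the floxed part had been removed. The libraries shared 2 to 55 barcodes pairwise.

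The region was expressed throughout the lineage, and 1 gene carried most of its transcripts. The members summed to 2909, 2708, 2479.5 and 2464 UPM. Between 33 and 35 members had at least 1 UMI in a library, and 27 of 36 had 1000 or more UMIs over all libraries. *Ranbp1*, which with the GTPase Ran drives nuclear transport and spindle assembly, stood far above the others at 2286, 2077, 1715 and 1829 UPM.

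The next levels belonged to *Dgcr6* and *Mrpl40*. *Dgcr6* was at 148, 134, 126 and 136 UPM. *Mrpl40*, a protein of the large subunit of the mitochondrial ribosome, was at 109, 107, 103 and 101 UPM. The members with the fourth and the fifth highest mean level were *Ufd1l*, whose product works with the ATPase VCP to extract ubiquitylated proteins, and *Dgcr2*, which encodes a membrane protein. *Ufd1l* was at 30.6, 31.8, 49.8 and 35.3 UPM, and *Dgcr2* at 27.7, 32.2, 36.6 and 27.8 UPM, so these neighbours in the order overlapped between libraries.

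**Figure D1:**
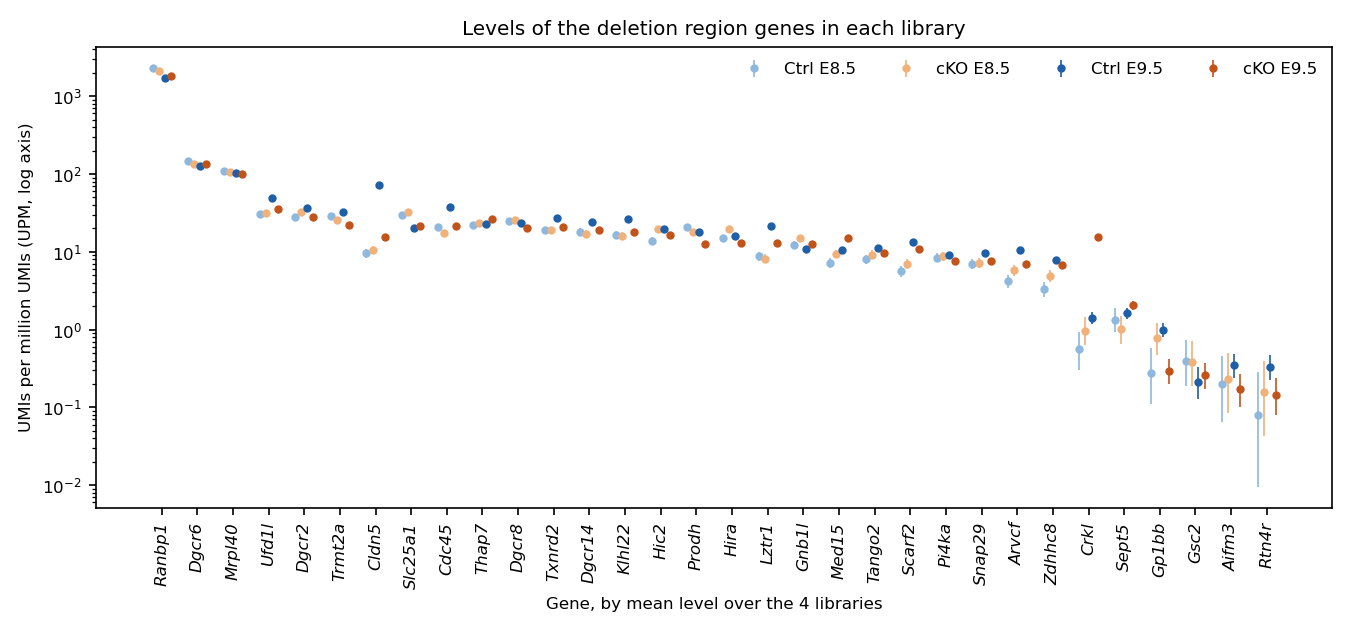
Level of each member with 50 or more UMIs over the 4 libraries, in UMIs per 1000000 (log axis), ordered by mean level, with exact 95% Poisson intervals (counting error only). Points of 1 gene stand side by side, 1 per library; *Ranbp1* is above 1715 UPM in each library, *Cldn5* is set apart in Ctrl E9.5 and *Crkl* in cKO E9.5.

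Many members start close to a neighbour on the opposite strand, and promoters are shown for 4 members that the results below turn on: *Ranbp1* and *Ufd1l* for their high level, and *Arvcf* and *Cldn5* for their higher level in a cell group. The windows are RefSeq sequences of GRCm38.p6, from 250 bases before to 50 bases after the transcript start, written 5′ to 3′ on the strand of the gene. Capitals mark matches, on either strand, to the letters CCAAT, to the TATA box TATAAA, to the core CCGGAA that ETS factors bind, to the GC box GGGCGG or to the E box CACGTG. The positions are chr16:18248645-18248944 on the minus strand for *Ranbp1*, chr16:18812044-18812343 on the plus strand for *Ufd1l*, chr16:18347932-18348231 on the plus strand for *Arvcf* and chr16:18776597-18776896 on the plus strand for *Cldn5*.
Ranbp1: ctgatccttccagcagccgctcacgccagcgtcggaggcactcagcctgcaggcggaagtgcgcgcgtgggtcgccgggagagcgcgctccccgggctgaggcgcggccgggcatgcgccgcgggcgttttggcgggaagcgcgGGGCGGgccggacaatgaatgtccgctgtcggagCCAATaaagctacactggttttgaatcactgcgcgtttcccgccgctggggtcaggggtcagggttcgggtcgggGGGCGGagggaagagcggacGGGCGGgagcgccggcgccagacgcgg
Ufd1l: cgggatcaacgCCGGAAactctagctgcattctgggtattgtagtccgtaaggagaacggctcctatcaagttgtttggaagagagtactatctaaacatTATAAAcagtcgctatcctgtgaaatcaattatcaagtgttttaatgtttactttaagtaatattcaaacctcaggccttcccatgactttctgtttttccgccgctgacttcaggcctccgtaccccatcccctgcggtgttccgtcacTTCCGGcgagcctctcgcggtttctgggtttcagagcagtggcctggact
Arvcf: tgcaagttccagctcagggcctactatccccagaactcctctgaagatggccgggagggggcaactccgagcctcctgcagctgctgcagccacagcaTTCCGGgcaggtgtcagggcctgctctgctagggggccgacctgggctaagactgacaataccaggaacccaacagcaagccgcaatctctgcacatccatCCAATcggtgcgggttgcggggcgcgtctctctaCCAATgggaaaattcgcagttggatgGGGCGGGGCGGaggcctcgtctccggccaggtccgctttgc
Cldn5: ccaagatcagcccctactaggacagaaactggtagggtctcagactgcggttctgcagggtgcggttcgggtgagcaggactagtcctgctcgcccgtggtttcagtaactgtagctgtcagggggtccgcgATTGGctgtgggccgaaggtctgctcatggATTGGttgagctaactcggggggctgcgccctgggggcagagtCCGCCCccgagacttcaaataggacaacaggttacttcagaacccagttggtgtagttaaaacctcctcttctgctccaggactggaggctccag
The *Ranbp1* window held 3 GC boxes and 1 CCAAT box and no TATAAA. The *Cldn5* window held 2 CCAAT boxes and 1 GC box, all on the minus strand. In *Ufd1l* a TATAAA lay well upstream of the start, and in *Arvcf* 2 GC boxes overlapped each other just after it. A match is a run of letters and not a shown binding site.

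Windows were found for 34 of 36 members, 42 windows in all. The GC box was in 73.8% of the member windows, against 35.7% of all 32851 windows in the table, and CCGGAA in 40.5% against 14.9%. CCAAT was in 42.9% against 37.4%, TATAAA in 11.9% against 13.6% and CACGTG in 7.14% against 7.15%. Member windows were richer in G and C, with a median of 63.5% against 52.7%, and GGGCGG holds no other letters. The shares describe the windows and were not tested.

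Head-to-head pairs were *Tango2* and *Arvcf* with 84 bases between their starts, *Mrpl40* and *Hira* with 113, *Ranbp1* and *Trmt2a* with 189, and *Cdc45* and *Ufd1l* with 322. Levels lay far apart in some pairs and overlapped in others. *Ranbp1* stood at 1715 to 2286 UPM and *Trmt2a*, which encodes a tRNA methyltransferase, at 22.04 to 32.1 UPM. *Mrpl40* stood at 101 to 109 UPM and *Hira* at 13.0 to 19.9 UPM. *Tango2* stood at 7.96 to 11.1 UPM and *Arvcf* at 4.16 to 10.6 UPM, so this pair overlapped. So did *Pi4ka* at 7.62 to 9.04 UPM and *Snap29* at 7.01 to 9.51 UPM, whose first bases overlap on opposite strands. Some members also overlap within the annotated gene on opposite strands: *Pi4ka* and *Serpind1* by 12204 bases, *Trmt2a* and *Dgcr8* by 825, *Pi4ka* and *Snap29* by 315 and *Cdc45* and *Ufd1l* by 237. *Gp1bb* and *Sept5* overlap by 593 bases, and the annotation table used gave no strand for *Sept5*. Whether the counting used strand is not given in the sources used here, so counts of these genes are uncertain where they overlap.

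At E8.5 no member with 50 or more UMIs over both libraries reached a 1.5-fold difference between cKO and Ctrl. Ratios are on the log2 scale, relative to the median ratio of all genes with 50 or more UMIs over both libraries, with exact conditional binomial intervals in square brackets. Of 27 members with enough UMIs, 0 were higher and 0 lower, where 6.03% of the 11393 genes compared were 1.5-fold or more higher in cKO and 3.5% lower. The member ratios ran from -0.45 to 0.51, and their median was 0.03 above that of all genes, which was itself 0.04. The highest was *Zdhhc8*, which encodes a palmitoyltransferase, at 3.33 UPM in Ctrl and 4.86 in cKO, a ratio of 0.51 [0.10, 0.93]. The lowest was *Sept5*, a septin of 34 and 26 UMIs, at -0.45 [-1.25, 0.33], which came to 0.01 with each cell thinned to 10000 UMIs. Below the minimum, *Gp1bb* had 7 and 20 UMIs and a ratio of 1.45 [0.15, 2.94]. *Crkl* had 14 and 25 UMIs and a ratio of 0.77 [-0.23, 1.83]. *Rtn4r*, with 2 and 4 UMIs, lay above the median gene, and *Slc7a4*, with 3 and 1, below it.

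At E9.5, 3 members were past 1.5-fold higher in cKO and 3 lower, of 30 compared. *Crkl*, *Med15* and *Sept5* were higher, and *Cldn5*, *Gp1bb* and *Aifm3* were lower. Among all 13803 genes compared, 10.6% were 1.5-fold or more higher and 11.3% lower, so the members' 3 and 3 of 30 stood near the share of all genes. The median ratio of all genes was -0.26 and that of the members lay 0.04 below it. Without centring at the median gene, 1 member was higher (*Crkl*) and 6 lower (*Arvcf*, *Cdc45*, *Cldn5*, *Gp1bb*, *Lztr1* and *Aifm3*), with 5.77% of all genes higher and 22.6% lower.

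**Figure D2:**
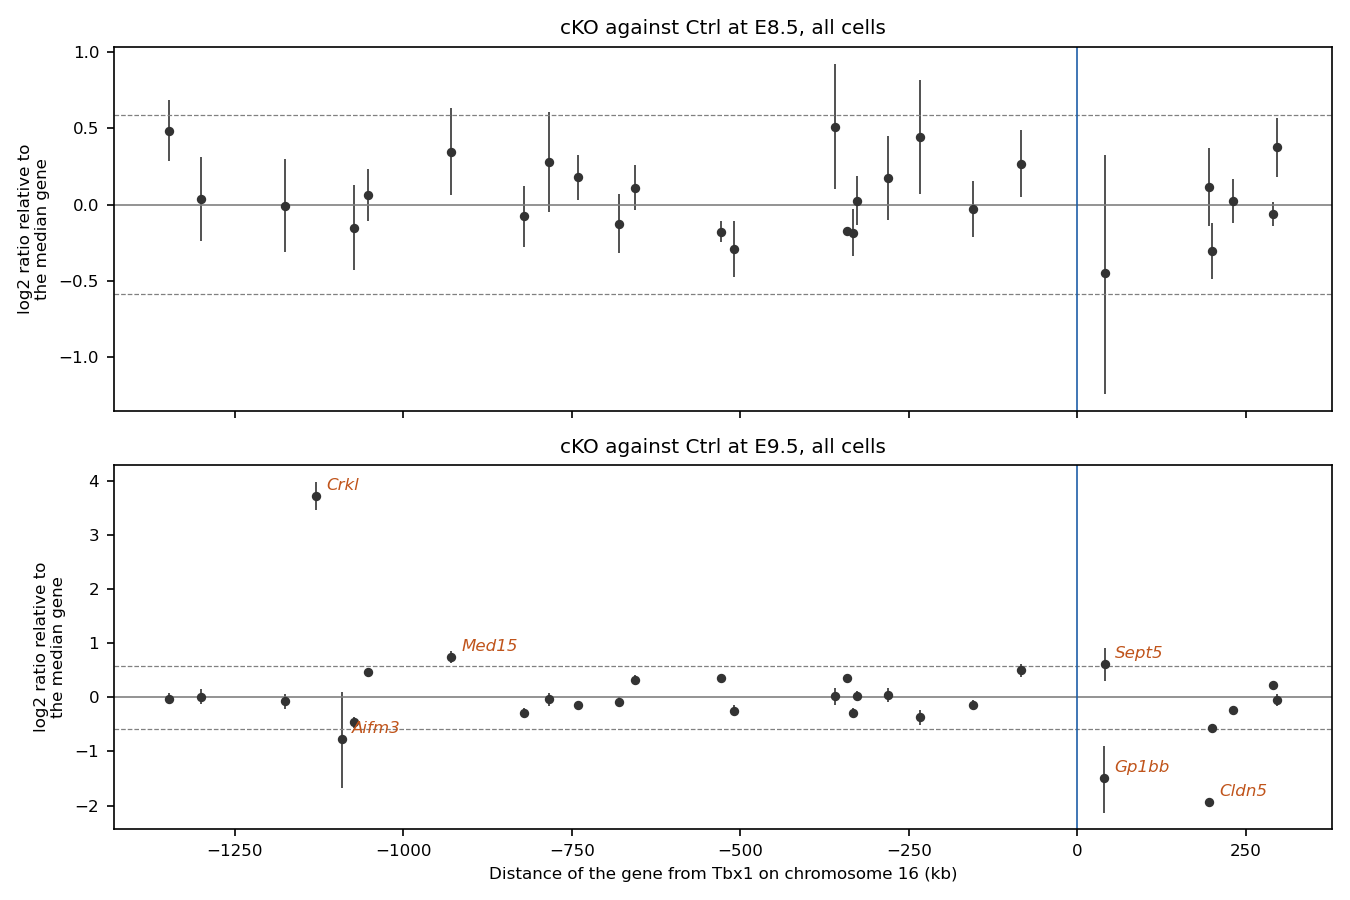
Log2 ratio of cKO to Ctrl for each member against the distance of its start from the *Tbx1* start on chromosome 16, in kb, at E8.5 (top, 27 members) and E9.5 (bottom, 30 members), relative to the median gene of the comparison. Vertical bars are 95% counting intervals, dashed lines mark 1.5-fold, the blue line is *Tbx1*, and the vertical scales of the panels differ; the 6 named members at E9.5 lie on both sides of *Tbx1* and are not its nearest neighbours alone.

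The ratios of the members nearest to the altered *Tbx1* allele had both signs at E9.5, and a part of position was not tested. Counted along the chromosome from the *Tbx1* start, *Gp1bb* and *Sept5* start at 39.3 and 40.8 kb, and *Gnb1l*, which encodes a WD-repeat protein, at -83.6 kb. At E9.5 their ratios were -1.49 [-2.13, -0.89], 0.61 [0.30, 0.92] and 0.50 [0.38, 0.62]. The next member on that side, *Txnrd2*, which encodes the mitochondrial thioredoxin reductase, was at -0.13 [-0.22, -0.05]. *Crkl* starts at -1129 kb and *Cldn5* at 195.9 kb.

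Between E8.5 and E9.5 in Ctrl, 7 members were 1.5-fold or more higher at the later stage and 4 lower, of 29 compared. Higher were *Cldn5*, *Gp1bb*, *Crkl*, *Arvcf*, *Lztr1*, *Scarf2* and *Zdhhc8*, and lower were *Slc25a1*, *Ranbp1*, *Prodh* and *Dgcr6*. Of 13068 genes compared, 16.5% were 1.5-fold or more higher at E9.5 and 14.0% lower. The median ratio of all genes was 0.38 and that of the members lay 0.06 above it. Without centring, 10 members were higher and 0 lower, with 34.5% of all genes higher and 5.4% lower. In cKO, whose libraries were counted on different gene tables, the same comparison gave 5 higher (*Crkl*, *Sept5*, *Lztr1*, *Med15* and *Scarf2*) and 3 lower (*Gp1bb*, *Hira* and *Slc25a1*), of 29 compared. Of 12976 genes compared there, 16.3% were 1.5-fold or more higher at E9.5 and 13.1% lower.

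The cells were grouped by clustering without the members, *Tbx1* and the partner genes described below. Groups with 50 or more cells in a library numbered 17, of which 9 were named from marker genes and 8 are called by their leading genes. Summed over the members, levels ran from 2753 to 3101 UPM in Ctrl and from 2275 to 2886 UPM in cKO at E8.5, over 11 and 10 groups. At E9.5 they ran from 1736 to 2791 UPM in Ctrl and from 2034 to 2975 UPM in cKO, over 16 groups each. *Ranbp1* made most of each sum. The lowest sum was in blood-like cells in both E8.5 libraries, in cardiomyocyte-like (CM-like) cells in Ctrl E9.5 and in the cluster led by *Lum* and *Plpp3* in cKO E9.5.

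A group was said to stand out for a member where the member's level was 2-fold or more above the remaining cells in every library with 50 or more cells of the group, and where the group held 20 or more UMIs. This was met by 4 members in named classes: *Cldn5* in endothelial-like cells, and *Arvcf*, *Aifm3* and *Slc7a4* in epithelial-like cells. Epithelial-like cells reached 50 cells in the E9.5 libraries alone, so the rule rested on those libraries there. *Aifm3* and *Slc7a4* passed the UMI minimum narrowly, with 25 and 26 UMIs in that class. The share of all genes that meet the rule was not computed, so the count of 4 has no background beside it.

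Within cell groups, the genotype comparison was repeated for each pair of a member and a named class with enough UMIs. At E8.5, 8 of 78 pairs in 5 classes were 1.5-fold or more higher in cKO and 2 lower, against 6.9% and 4.31% of the pairs of all genes. At E9.5, 17 of 181 pairs in 8 classes were higher and 14 lower, against 9.4% and 9.79%. Small counts widen these ratios, and pairs of 1 gene are not independent.

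Some members kept to 1 side of the median gene in every group compared, clusters included. Of 15 members with 8 or more groups at E8.5, 2 lay above it in every group (*Dgcr2* and *Hic2*) and 1 below (*Ranbp1*), where 10.9% of genes lay above and 11.2% below. Of 26 members at E9.5, 5 lay above in every group (*Crkl*, *Dgcr6*, *Med15*, *Mrpl40* and *Ranbp1*) and 2 below (*Klhl22* and *Lztr1*), where 16% of genes lay above and 13.3% below. The groups of a stage come from the same pair of libraries, so a shift of a whole library appears in each of them.

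**Figure D3:**
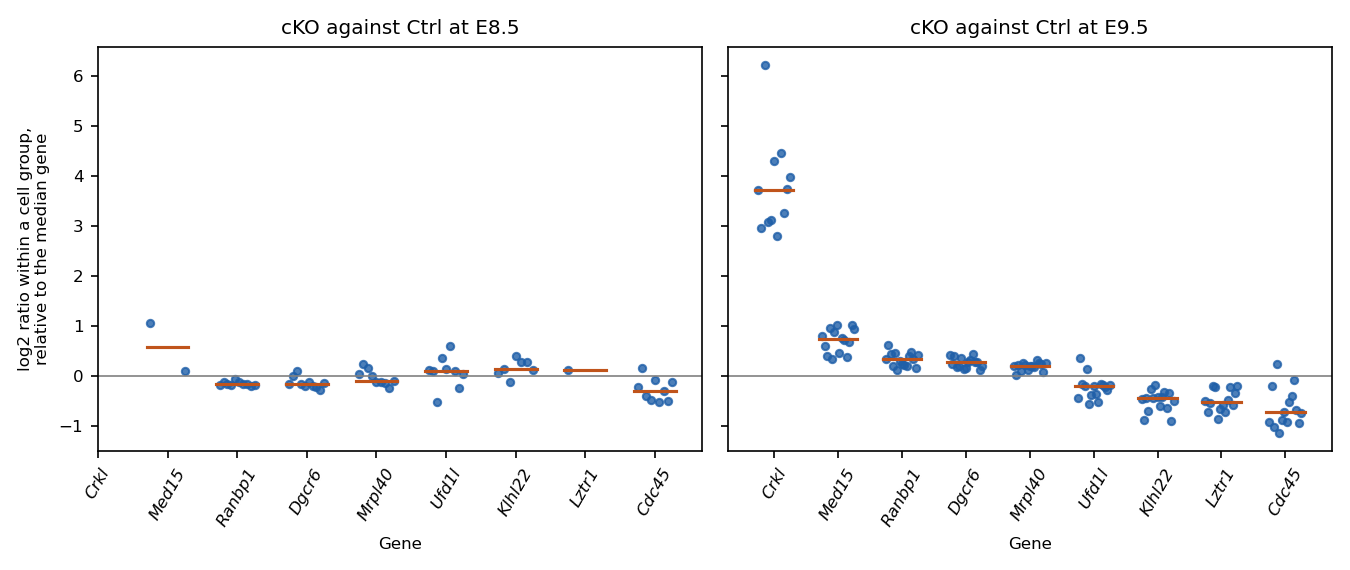
Log2 ratio of cKO to Ctrl within each cell group, relative to the median gene of that group, for 9 members with E8.5 in the left panel and E9.5 in the right; each point is 1 group with 50 or more cells in both libraries and enough UMIs, and the bar is the median over groups. *Crkl* at E9.5 lies between 2.80 and 6.22 in 11 groups, *Ranbp1* lies below 0 at E8.5 and above 0 at E9.5 in every group, and *Cdc45* has a median of -0.74 at E9.5.

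Among genes of nuclear RNA, chromatin and transcription, *Med15* differed most between genotypes at E9.5. *Med15*, a subunit of the Mediator complex that links transcription factors to RNA polymerase, was at 7.21 UPM [6.20, 8.34], 9.40 [8.26, 10.7], 10.6 [9.96, 11.3] and 14.9 [14.1, 15.6]. It was higher in cKO at both stages and highest in cKO E9.5. The ratio was 0.35 [0.06, 0.63] at E8.5 and 0.74 [0.63, 0.86] at E9.5, and at E9.5 it was above the median gene in 14 of 14 groups, from 0.33 to 1.01.

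*Hic2* and *Hira* differed between genotypes mainly at E8.5. *Hic2*, which encodes a zinc-finger transcriptional repressor, was at 13.8, 19.8, 19.8 and 16.3 UPM, so Ctrl E8.5 stood below the other libraries. Its E8.5 ratio was 0.48 [0.28, 0.69], above the median gene in 8 of 8 groups, while at E9.5 it was -0.02 [-0.12, 0.07]. *Hira*, a chaperone that places the replacement histone of active genes, was at 14.9, 19.9, 16.02 and 13.0 UPM, with ratios of 0.37 [0.18, 0.57] at E8.5 and -0.05 [-0.16, 0.06] at E9.5. The difference of either gene between stages was not tested.

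*Dgcr8*, the RNA-binding partner of Drosha in microRNA processing, was at 24.6, 25.7, 23.5 and 19.99 UPM, with ratios of 0.03 and 0.02 at E8.5 and E9.5. *Dgcr14*, which encodes a protein of the spliceosome, had ratios of -0.13 and -0.08, and *Trmt2a* had -0.19 and -0.28. *Thap7*, which encodes a zinc-finger protein, was at 0.06 at E8.5 and 0.47 [0.38, 0.55] at E9.5. *Gsc2*, a homeobox gene, had 10, 10, 20 and 27 UMIs and was too sparse to compare.

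*Ranbp1* leads the genes of cell division, nuclear transport and protein turnover. It was lower in cKO than in Ctrl at E8.5 and higher at E9.5, relative to the median gene, with ratios of -0.17 [-0.19, -0.16] and 0.35 [0.34, 0.36]. These held in 10 of 10 groups at E8.5, from -0.21 to -0.07, and in 15 of 15 groups at E9.5, from 0.12 to 0.62. Between stages in Ctrl it was lower at E9.5 by a ratio of -0.79 [-0.80, -0.78]. Across groups it ranged from 1140 UPM in CM-like cells to 2029 in cells like those of the posterior second heart field (pSHF-like) within Ctrl E9.5. Counting intervals are tight at this depth and say nothing of differences between library preparations.

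*Cdc45*, which joins the MCM ring and the GINS complex to form the helicase that unwinds DNA at replication forks, was at 20.8 UPM [19.1, 22.7], 17.3 [15.7, 18.9], 37.7 [36.4, 38.9] and 21.2 [20.3, 22.1]. Ctrl E9.5 stood above the other libraries. The E9.5 ratio of -0.57 [-0.65, -0.50] fell just short of 1.5-fold, and within groups it ran from -1.14 to 0.23, with the interval below the median gene in 10 of 14 groups. BrM-like cells, which carry markers of branchiomeric muscle progenitors, went from 43.3 UPM in Ctrl to 19.2 in cKO. In epithelial-like cells the levels were 23.9 and 19.6 UPM, close to the shift of the median gene there.

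The 10 other helicase genes listed (*Mcm2* to *Mcm7* and *Gins1* to *Gins4*) summed to 850.3, 834, 1168 and 798 UPM, so their sum was also highest in Ctrl E9.5. Of these 10 genes, 0 were past 1.5-fold between genotypes at E8.5, 2 were lower in cKO at E9.5 and 0 were past it between stages in Ctrl. Among all genes compared, 6.03% were higher and 3.5% lower in cKO by that fold at E8.5, and 10.6% and 11.3% at E9.5. Between stages in Ctrl the shares were 16.5% and 14.0%. A list of 10 genes cannot be set apart from these shares. At E9.5 *Gins1*, *Gins2* and *Gins4* lay above the median gene and the others of the list below it. The part of the other helicase genes in the *Cdc45* difference was not tested. The S phase list stood at 3339.9, 3423, 4325 and 3366 UPM, and the G2/M phase list at 6836, 7289, 8332 and 7914. Over the 16 groups of Ctrl E9.5, *Cdc45* followed the S phase list with a Pearson's r of 0.81 and a Spearman's rho of 0.78, over 16 groups of cKO E9.5 with 0.58 and 0.45, and over 11 groups of Ctrl E8.5 with 0.44 and 0.35. In cKO E9.5 *Dgcr8* followed the S phase list more closely than *Cdc45*, at 0.72 and 0.68, as did *Trmt2a* at 0.70 and 0.67. In Ctrl E8.5 *Ranbp1* did so at 0.69 and 0.56, while in Ctrl E9.5 it was below *Cdc45*, at 0.74 and 0.47. The likeness is thus not particular to *Cdc45*. Such groups share a library and differ in depth, so these are descriptions.

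*Ufd1l* was highest in Ctrl E9.5 at 49.8 UPM and had ratios of 0.02 [-0.12, 0.17] at E8.5 and -0.24 [-0.30, -0.18] at E9.5. A pair of genes for adaptors of the CUL3 ubiquitin ligase lay below the median gene in every E9.5 group compared. *Lztr1*, which targets RAS-family proteins, was at 8.84, 8.16, 21.4 and 13.0 UPM and so was higher at E9.5 than at E8.5 in both genotypes. Its E9.5 genotype ratio was -0.46 [-0.56, -0.36], from -0.87 to -0.21 over 14 groups, and its stage ratio in Ctrl was 0.90 [0.70, 1.11]. *Klhl22* was at 16.6, 16.1, 26.4 and 18.1 UPM, with an E9.5 ratio of -0.29 [-0.38, -0.21], from -0.91 to -0.19 over 15 groups. *Gnb1l* was above the median gene at both stages, at 0.27 [0.05, 0.49] and 0.50 [0.38, 0.62].

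Of the 6 mitochondrial and metabolic members, *Slc25a1* and *Prodh* were past 1.5-fold lower at E9.5 than at E8.5 in Ctrl. Among all genes compared there, 14.0% were lower by that fold, and a list this short cannot be set apart from that share. *Slc25a1*, the carrier that exports citrate from mitochondria, was at 29.3 UPM [27.2, 31.5], 32.5 [30.3, 34.8], 20.4 [19.5, 21.3] and 21.4 [20.5, 22.3]. Both E8.5 libraries lay above both E9.5 libraries, with stage ratios of -0.90 [-1.02, -0.77] in Ctrl and -0.66 [-0.77, -0.54] in cKO. *Prodh*, which starts the breakdown of proline, was at 21.1, 17.7, 17.9 and 12.6 UPM, with a stage ratio of -0.62 [-0.76, -0.47] in Ctrl and -0.54 [-0.70, -0.38] in cKO.

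*Mrpl40* had a stage ratio of -0.47 [-0.53, -0.40] in Ctrl. At E9.5 its genotype ratio was 0.23 [0.19, 0.27] relative to the median gene, above it in 15 of 15 groups, but -0.03 without centring, so its direction there depends on the scaling. *Txnrd2* was at 19.3, 19.3, 27.5 and 20.9 UPM and *Tango2* at 7.96, 9.21, 11.1 and 9.52 UPM, and neither passed 1.5-fold in a whole-library comparison. *Aifm3*, a relative of apoptosis-inducing factor, had 5, 6, 33 and 18 UMIs and is taken up with the epithelial-like cells.

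*Crkl* showed the widest difference of the region. *Crkl* (chr16:17451985-17487440, plus strand), an SH2 and SH3 domain adaptor that passes growth factor and integrin signals, had 14, 25, 133 and 1625 UMIs. As levels these were 0.555 UPM [0.303, 0.931], 0.972 [0.629, 1.43], 1.41 [1.18, 1.67] and 15.5 [14.8, 16.3]. The 3 libraries counted on the table of 27998 genes lay at or below 1.41 UPM, and the library counted on the other table stood apart. The E9.5 genotype ratio was 3.72 [3.46, 3.98], and the stage ratio was 0.97 [0.17, 1.88] in Ctrl and 3.95 [3.38, 4.58] in cKO.

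The *Crkl* level in cKO E9.5 was spread over every cell group. Over the 16 groups it was lowest in blood-like cells, at 10.5 UPM, and highest in CM-like cells, at 22.6. These values rest on at most 7 and 23 UMIs, so the order of the groups is uncertain. In Ctrl E9.5 *Crkl* ranged from 0.22 UPM in the cluster led by *Crym* and *Tgfbi*, which rests on 1 UMI, to 2.51 UPM in the cluster led by *Notch2* and *Slc39a1*. The ratio was above the median gene by 2.80 to 6.22 in the 11 groups compared. Counting all genes, 56 of 13803 had a ratio at or above that of *Crkl*, 81 were 8-fold or more higher in cKO E9.5 and 50 were 8-fold or more lower. The part of the other gene table in the *Crkl* difference was not tested and cannot be told apart from genotype here.

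*Sept5* and *Gp1bb*, which overlap, differed in opposite directions at E9.5. *Gp1bb*, a subunit of the platelet receptor for von Willebrand factor, had 7, 20, 94 and 31 UMIs, and *Sept5*, which encodes a filament-forming GTPase, had 34, 26, 152 and 215 UMIs. *Gp1bb* was lower in cKO E9.5 and *Sept5* higher. Their sum was 41, 46, 246 and 246 UMIs, with an E9.5 ratio of 0.11 [-0.15, 0.37], so the opposite differences did not appear in the sum. Why the genes differed in opposite directions was not tested. For *Sept5* the ratio came to 0.03 when each cell was thinned to 10000 UMIs (96 and 93 UMIs).

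The other members of the adaptor, lipid and membrane traffic class differed little between genotypes at E9.5. *Pi4ka*, which makes the phosphoinositide pool of the plasma membrane, was at 8.40, 8.82, 9.04 and 7.62 UPM. *Snap29*, a SNARE protein of membrane fusion, was at 7.01, 7.15, 9.51 and 7.58 UPM. *Zdhhc8* was at 3.33, 4.86, 7.89 and 6.68 UPM, higher at E9.5 in both genotypes, with a stage ratio of 0.87 [0.54, 1.21] in Ctrl and 0.41 [0.13, 0.69] in cKO. The E9.5 genotype ratios of these genes lay between -0.07 and 0.02.

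*Cldn5* was the member most bound to 1 cell group. *Cldn5* (chr16:18776847-18778262, plus strand), a claudin of the tight junctions between endothelial cells, was at 101, 139.8, 778 and 689.7 UPM in endothelial-like cells. These were 80.3 to 872-fold the level of the remaining cells of the same library. In mesenchyme-like cells the levels were 1.33, 0.60, 2.01 and 0.65 UPM. With each cell thinned to 10000 UMIs, 40.4%, 48.5%, 94.1% and 91.9% of endothelial-like cells held a *Cldn5* UMI, against 1.94%, 0.649%, 2.002% and 0.726% of mesenchyme-like cells, which should lack the gene. Without thinning the shares were 55.3%, 57.1%, 95.2% and 94.4% against 2.23%, 1.27%, 2.87% and 1.06%, and the mesenchyme-like shares are read as background.

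Between the E9.5 libraries, the whole-library level of *Cldn5* and the share of endothelial-like cells were both lower in cKO. Over all cells *Cldn5* was at 9.51 UPM [8.34, 10.8], 10.6 [9.35, 11.9], 71.6 [69.9, 73.3] and 15.6 [14.9, 16.4], so Ctrl E9.5 stood apart, and the E9.5 genotype ratio was -1.94 [-2.02, -1.86]. Endothelial-like cells were 7.18%, 6.42%, 7.72% and 2.01% of the libraries. Within endothelial-like cells at E9.5 the ratio was 0.02 [-0.06, 0.10], and over all cells it was 0.01 when both libraries were given the same class shares. In these data fewer cells of a type and less RNA in each can be separated only as far as the clusters hold, and the share itself comes from 1 sort of each genotype.

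Endothelial-like cells came from a pair of clusters that differed in *Cldn5*. In the cluster led by *Emcn* and *Ctla2a* the level was 197 UPM [165, 234], 198 [154, 252], 833 [812, 854] and 821 [775, 869], over 33, 16, 348 and 88 cells. In the cluster led by *Etv2* and *Lmo2*, which encode regulators of early endothelial and blood fate, it was 54.3 [42.8, 67.9], 127 [109, 146], 497 [460, 535] and 456 [411, 505], over 70, 54, 73 and 38 cells. The level was higher at E9.5 than at E8.5 in both clusters and both genotypes. At E8.5 the genotypes lay together in the first cluster and apart in the second, and over the whole class the ratio was 0.44 [0.17, 0.71].

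Among the named classes at E9.5, *Arvcf* was highest in epithelial-like cells. *Arvcf*, a catenin of the p120 family that binds cadherins at cell junctions, was at 26.6 UPM in these cells of Ctrl at E9.5 and at 22.1 UPM in those of cKO, which is 3.29 and 3.496-fold the remaining cells. Endothelial-like cells were at 3.30 and 2.66 UPM. With cells thinned to 10000 UMIs, 22.3% and 20.7% of epithelial-like cells held an *Arvcf* UMI, against 1.80% of endothelial-like cells in each library. The endothelial-like share was the lowest of the named classes in Ctrl E9.5, where 19.1% of neural-like, 15.04% of multilineage progenitor-like (MLP-like) and 10.6% of BrM-like cells held an *Arvcf* UMI. The cluster led by *Dlx5* and *Spp1*, present with 50 or more cells in Ctrl E9.5 alone, reached 30.3 UPM.

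Over all cells *Arvcf* was at 4.16, 5.79, 10.6 and 6.86 UPM, and its genotype ratios were 0.44 [0.07, 0.82] at E8.5 and -0.37 [-0.51, -0.23] at E9.5. At E9.5 epithelial-like cells were 12.5% of Ctrl and 2.94% of cKO. With equal class shares the E9.5 ratio came to -0.15. The epithelial-like cells lay mostly in the cluster led by *Vgll2* and *Pax1* in Ctrl (416 cells, against 267 in that led by *Foxi2* and *Sostdc1*) and in the latter in cKO (113 cells, against 71). *Arvcf* was at 26.97 UPM [23.4, 30.9] and 27.7 [19.9, 37.6] in the first cluster and at 26.0 [21.7, 30.8] and 18.2 [12.9, 24.9] in the second, Ctrl before cKO.

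**Figure D4:**
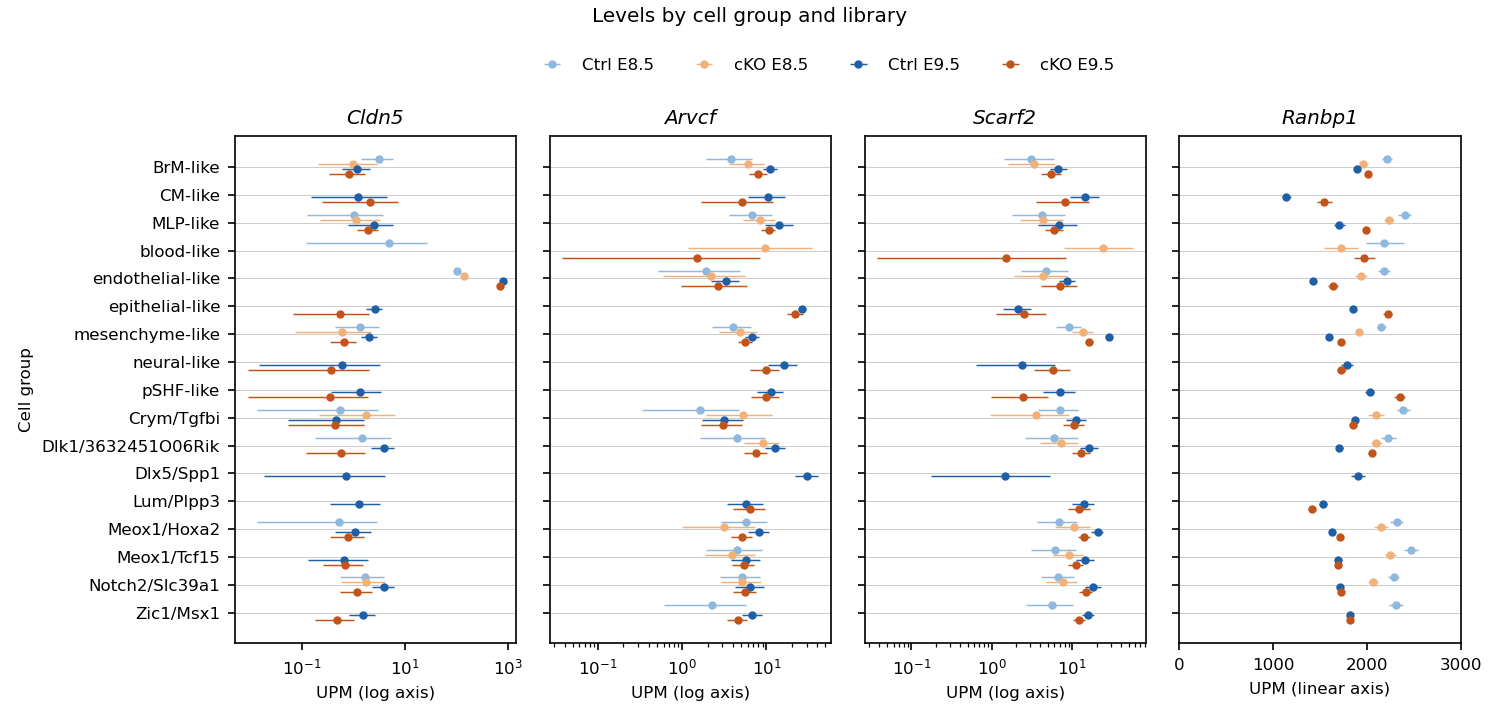
Level of *Cldn5*, *Arvcf*, *Scarf2* (log axes) and *Ranbp1* (linear axis) in UMIs per 1000000 for each cell group with 50 or more cells, colored by library, with exact 95% Poisson intervals; points at 0 are not drawn. *Cldn5* reaches 778 UPM in endothelial-like cells of Ctrl E9.5, *Arvcf* 26.6 in epithelial-like cells and *Scarf2* 28.3 in mesenchyme-like cells of the same library, while *Ranbp1* lies between 1140 and 2472 in every group drawn.

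*Scarf2* contrasted with *Arvcf* at E9.5 in being high in mesenchyme-like cells and low in epithelial-like cells. *Scarf2*, a scavenger receptor family gene, was at 28.3 UPM in mesenchyme-like cells of Ctrl and 16.1 UPM in those of cKO, and at 2.09 and 2.48 UPM in epithelial-like cells. At E8.5 the mesenchyme-like level was 9.06 in Ctrl and 13.5 in cKO. Against the remaining cells of the same library, mesenchyme-like cells were 1.65 to 2.72-fold, short of the 2-fold rule in at least 1 library, and epithelial-like cells were at 0.137 and 0.221 of them. Over all cells it was at 5.59, 6.96, 13.4 and 10.9 UPM, higher at E9.5 in both genotypes, with stage ratios of 0.89 [0.64, 1.15] and 0.60 [0.37, 0.84].

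*Dgcr2* and *Dgcr6* were spread over all groups. *Dgcr2* was above the median gene in 9 of 9 groups at E8.5 and in 2 of 15 at E9.5, with whole-library ratios of 0.18 [0.03, 0.33] and -0.14 [-0.21, -0.07]. *Dgcr6* was below it in 9 of 10 groups at E8.5 and above it in 15 of 15 at E9.5, with ratios of -0.18 [-0.25, -0.11] and 0.36 [0.33, 0.40]. Its stage ratio in Ctrl was -0.61 [-0.66, -0.55]. *Rtn4r*, the Nogo receptor of axons, had 2, 4, 31 and 15 UMIs and was too sparse to compare.

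Within Ctrl E9.5, most of the few UMIs of *Aifm3*, *Slc7a4* and *Gp1bb* were in epithelial-like cells. *Aifm3* had 20 of its 33 UMIs there and 5 of 18 in cKO E9.5, or 1.55 and 1.38 UPM. *Slc7a4*, a transporter of the cationic amino acid family, had 24 of 36 UMIs there and 2 of 4 in cKO E9.5, and *Gp1bb* had 51 of 94 and 2 of 31. Against the remaining cells these were 9.69 to 10.7-fold for *Aifm3* and 12.6 to 27.9-fold for *Slc7a4*, the cKO values of which rest on 5 and 2 UMIs.

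The cluster led by *Vgll2* and *Pax1* held the clearest difference of *Gp1bb*. In Ctrl E9.5 it had 40 *Gp1bb* UMIs in 416 cells, 5.14 UPM [3.67, 6.995], and in cKO E9.5 it had 0 in 71 cells, with an upper bound of 2.49 UPM. For *Aifm3* the counts were 13 and 0 UMIs, and for *Slc7a4* 15 and 0, where the upper bound of 2.49 UPM in cKO reaches the Ctrl levels of 1.67 and 1.93 UPM, so no difference was detectable at this depth. The E9.5 ratio of *Aifm3* over all cells was -0.77 [-1.68, 0.10], an interval that includes the median gene, and that of *Gp1bb* was -1.49 [-2.13, -0.89]. *Gp1bb* was higher at E9.5 than at E8.5 in Ctrl, at 1.47 [0.37, 2.82], and lower in cKO, at -1.44 [-2.30, -0.55].

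Of the members with fewer than 50 UMIs over all libraries, *Slc7a4* had 3, 1, 36 and 4. *P2rx6*, an ATP-gated channel subunit, had 0, 1, 8 and 2 UMIs, and *Serpind1*, which encodes the clotting inhibitor heparin cofactor II, had 1 UMI, in cKO E9.5. *Tssk2*, a kinase gene of the testis, had 0 UMIs in every library, and a count of 0, taken as a limit of 3 UMIs, allows a level of up to 0.119, 0.117, 0.0318 and 0.0287 UPM.

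Partners of 10 members in known complexes and pathways were read beside them, from lists chosen by function. Of 55 listed genes, all compared, 1 was 1.5-fold or more higher in cKO at E8.5 and 0 lower. At E9.5, 2 were higher and 4 lower, and between stages in Ctrl 2 were higher and 7 lower. These 3 counts stand beside the background shares given above, and the lists are too short to be set apart from them.

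The helicase partners *Mcm2* and *Mcm6* were lower in cKO at E9.5, at -0.70 and -0.59, the same direction as *Cdc45*. Of the other listed helicase genes, *Mcm3*, *Mcm4*, *Mcm5*, *Mcm7* and *Gins3* were also below the median gene, from -0.58 to -0.18. *Gins1*, *Gins2* and *Gins4* were above it, at 0.30, 0.33 and 0.26. For *Ufd1l*, its partner *Vcp* went from 378 UPM in Ctrl E9.5 to 161 in cKO, a ratio of -0.97, and *Faf1*, a cofactor of the same ATPase, was at -0.86. The other genes listed with *Ufd1l*, *Nploc4* and *Ubxn7*, lay above the median gene, at 0.09 and 0.26. *Cabin1*, which binds HIRA, was at 0.69, and *Txn1*, the cytosolic thioredoxin, at 0.65. *Efr3b*, an anchor of PI4KA, was at 0.98 at E8.5 on 18 and 37 UMIs.

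Between stages in Ctrl, 3 of 6 listed proteins of the large mitochondrial ribosome were lower at E9.5, *Mrpl52* at -1.10, *Mrpl12* at -1.08 and *Mrpl15* at -0.64, beside -0.47 for *Mrpl40*, where 14.0% of all genes were lower. *Xpo1*, the exportin that uses Ran, was at -0.85, beside -0.79 for *Ranbp1*. *Drosha*, the partner of DGCR8, was at -0.63, and *Dgcr8* itself at -0.44. Also lower were *Prdx5* at -0.65 and *Ttc7* at -0.85, and higher were *Ubn1*, of the HIRA complex, at 0.91 and *Efr3b* at 0.62. None of the 5 partners of *Crkl*, among them *Crk* and *Rapgef1*, was past 1.5-fold at either stage in the genotype comparison.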

How the data were processed

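Droplet 3′ single-cell RNA-seq was measured in 4 libraries, 1 per genotype and stage. The authors deposited tables of unnormalized UMI counts, aligned to mm10. The submitters' processing notes name Cell Ranger 3.1.0, and the headers of the E8.5 matrices name 3.0.2. Whether counting used strand is not given in the sources used here. Both gene tables shared 27514 Ensembl identifiers, of which 1027 had another symbol in cKO E9.5. These held 99.4% to 99.9% of the UMIs of a library. Every deposited barcode was kept. The totals were 25236185, 25733964, 94273154 and 104635590 UMIs for Ctrl E8.5, cKO E8.5, Ctrl E9.5 and cKO E9.5.

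UMIs were summed per library and cell group and divided by the total of the shared genes. Samples were grouped by the genotype and stage in the labels, and 0 columns of other series were used. A member counted as different at 1.5-fold from the median gene, among genes with 50 or more UMIs over both libraries. Intervals were exact Poisson, conditional binomial or Clopper-Pearson intervals at 95%. They cover counting error only.

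Cells were integrated by reciprocal principal components in Seurat 5.3.0 (R 4.3.3), with 2000 variable genes, 30 components, a resolution of 1 and the seed 1. The members, *Tbx1* and the partner genes (92 genes) and 138 technical genes were left out. A cluster was named where 3 or more markers with 20 or more UMIs were at 1.5-fold or more (10 UPM added) in Ctrl cells, at least 1 of them among its top 10 genes. It stayed unnamed where another class had as many or more markers among those 10 genes. Other clusters are called by their leading genes. Scrublet (scanpy 1.11.5) called 26, 21, 0 and 2 doublets in the 4 libraries, so it did not work at E9.5. Leaving out the 5% of barcodes with the highest scores was therefore added after seeing the data, as was the minimum of 20 UMIs for a group that stands out.

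Members given in all libraries were those past 1.5-fold, those with a group that stands out, the 5 highest and those under 50 UMIs. The members and lists were chosen with earlier results of these data known. Some further members are named for completeness of their class, chosen after their values were seen. Cell cycle phase lists are given as summed levels. Scripts were tested on simulated data. Sums were made in Python 3.11.15 with pandas 2.3.3, numpy 2.4.6 and scipy 1.17.1, and edgeR 4.0.16 for its scaling factors alone. Alternatives were other scalings, minimums, folds (a smaller fold and a fold of 2), depths, doublet treatments, class shares and clusterings.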

Additional observations from a re-analysis of the deposited data

Results flagged for a closer look

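For 4 members the cKO to Ctrl ratio (log2, relative to the median gene) had opposite signs at E8.5 and E9.5, with counting intervals that leave out the median gene at both stages. *Dgcr2* was at 0.18 and -0.14, *Dgcr6* at -0.18 and 0.36, *Ranbp1* at -0.17 and 0.35, and *Arvcf* at 0.44 and -0.37. Within cell groups at E9.5 the *Arvcf* interval lay below the median gene in 0 of 11 groups, and that of *Dgcr2* in 3 of 15. With equal class shares the E9.5 ratio of *Arvcf* was closer to the median gene. With 1 library per group, the difference between the stages was not tested. Without centring, the E9.5 ratios of *Dgcr6* and *Ranbp1* were 0.10 and 0.09, which is the same sign but closer to 0. Each stage compares 1 pair of libraries, and the E9.5 pair was counted on different gene tables.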

How the results depend on the processing

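No paired analysis was possible because each group was 1 library with no replicate number, and no library could be left out in turn. At E8.5 the count of members past 1.5-fold, 0 in the setting reported, was 4 with no minimum on UMIs, 1 with each cell weighted equally, 1 after thinning, 1 with equal class shares and 6 at the smaller fold tried. All genes gave 12.4% higher and 9.24% lower with no minimum, and 16.5% and 12.4% at the smaller fold. At E9.5 the count of 6 became 14 at that fold (all genes 22.9% higher and 23% lower) and 3 at a fold of 2 (4.26% and 5.49%), and the stage count of 11 became 17 (27.7% and 26.8%) and 2 (8.49% and 5%). Without centring the members' median was -0.30 at E9.5 and 0.44 between stages. The ratio of *Cldn5* at E9.5 was 0.0075 with equal class shares, against -1.94. Of 235 recomputed ratios of named members, 217 lay within the counting interval of the value reported and 17 beyond it, and 1, that of *Cldn5*, was past 1.5-fold and changed sign. The sign differed in 3 in all, the other two being *Sept5* after thinning, at 0.01 at E8.5 and 0.39 between stages in Ctrl. Other counts stayed within 1.5 times, among them those after leaving out doublets or high doublet scores, and the members that stand out numbered 4 or 5 under each other clustering. Depth limits *Gsc2*, *Rtn4r*, *P2rx6*, *Slc7a4*, *Serpind1* and *Tssk2*, for which no ratio between libraries is given. It also limits *Crkl*, *Gp1bb* and *Aifm3* at E8.5.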
